A study of Homo sapiens with 6 samples.

Results

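The genes described here are 10 epithelial keratins, chosen by their symbols from the 37493 gene identifiers of the count tables. They are the simple keratins KRT7, KRT8, KRT18, KRT19 and KRT20 and the squamous keratins KRT6A, KRT13, KRT15, KRT16 and KRT17. Each symbol matched 1 identifier in both tables. RNA was sequenced from 2 human esophageal adenocarcinoma cell lines, OE33 and Eso26. The groups were OE33 treated with siRNA against PPARG (siPPARG), OE33 with non-silencing siRNA (control), Eso26 siPPARG and Eso26 control, with 1 library each. All 4 were transfected with Lipofectamine RNAiMAX. OE33 grew in DMEM and Eso26 in RPMI medium, both with fetal bovine serum, so line and medium cannot be told apart. The series also holds PPARG ChIP-seq peak lists of both lines, which were not analysed here. The series' design text speaks of triplicates, whereas the tables carry 1 column a condition, so no value within a condition has a replicate check.

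Keratins form the intermediate filaments of epithelial cells. A filament is built from pairs of an acidic type I keratin (KRT13, KRT15 to KRT20) and a basic type II keratin (KRT6A, KRT7, KRT8), and neither kind polymerises alone. Single-layered epithelia such as gut and glands use KRT8 with KRT18, and add KRT19, KRT7 or KRT20 according to the organ. The stratified squamous lining of the normal esophagus uses KRT5 with KRT14 and KRT15 in its basal cells and KRT4 with KRT13 above them, while KRT6A, KRT16 and KRT17 appear in wounded or fast-growing squamous epithelium. Pathologists read KRT7 and KRT20 together to describe columnar epithelia and adenocarcinomas of the gut.

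The libraries held between 16866996 and 23019840 counts. Levels are given as CPM, the counts per 1000000 of a library scaled with TMM factors over the 4 libraries, and every interval is a 95% interval that covers counting error only. The tables give no gene length, so a level is compared between libraries and not between genes. Where a library had 0 counts, up to 3 remain possible, or 0.129 to 0.181 CPM. The targeted gene, PPARG, had 313 counts in OE33 siPPARG, against 2156 in OE33 control, and 201 counts in Eso26 siPPARG, against 259 in Eso26 control. The Eso26 ratio of 0.843 (interval 0.698 to 1.02) includes no change, so a reduction of PPARG mRNA was not detectable in the Eso26 library labelled siPPARG.

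The label of epithelial, columnar cells was checked against markers. Of 13 columnar markers, 8 reached 5 CPM in OE33 and 12 in Eso26, and the adhesion gene EPCAM stood at 526 and 530 CPM in OE33 siPPARG and control and at 2080 and 2103 CPM in Eso26 siPPARG and control. Of 13 squamous markers, 6 reached 5 CPM in OE33 and 4 in Eso26. TP63, the master factor of squamous epithelium, had 1 count in each OE33 library and 0 in each Eso26 library. Other squamous markers were expressed in OE33 control, with KLF4, PITX1 and GRHL3 at 111, 72.2 and 54.6 CPM. SPRR3, SPRR1B and IVL stood at 20.2, 12.4 and 6.21 CPM there. The columnar markers under 5 CPM in OE33 were HNF4A, CDH17, MUC13, VIL1 and TFF1, with 2, 7, 8, 18 and 33 counts in OE33 control. Both lines thus expressed members of both lists. Of 10 mesenchymal markers, 1 reached 5 CPM in each line, SNAI2 in OE33 (90 and 112 counts in siPPARG and control, 0 in Eso26) and COL1A1 in Eso26 (135 and 129 counts in siPPARG and control, 88 and 60 in OE33), and 2 had 0 counts in all 4 libraries. The summed level of these markers was 11.1 and 11.8 CPM in OE33 siPPARG and control and 8.85 and 7.58 CPM in Eso26 siPPARG and control, and VIM, the mesenchymal intermediate filament gene, had at most 10 counts. Of 5 immune markers, CD14 reached 5 CPM, in OE33 alone, with 94 and 83 counts in siPPARG and control, against 13 and 17 in Eso26. CD79A had 68 and 51 counts in OE33 siPPARG and control and 0 in Eso26, and PTPRC, the pan-leukocyte marker, had at most 1 count. The summed immune level was 9.31 and 8.08 CPM in OE33 siPPARG and control and 0.656 and 0.733 CPM in Eso26 siPPARG and control.

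The comparison of the control libraries asks which keratins each line uses. KRT7 and KRT20 were found in opposite lines: KRT7 was abundant in OE33 and near background in Eso26, and KRT20 was the reverse. KRT15 and KRT13 were also largely found in OE33, KRT19, KRT18 and KRT16 were higher there, KRT17 was higher in Eso26, and KRT8 differed least. KRT6A was at or near 0 in every library. KRT20, which had the lowest ratio of OE33 to Eso26 among the 10, has its promoter in the RefSeq table for GRCh38.p14, at chr17:40885193-40885492 on the minus strand. It is shown because this gene had almost no reads in OE33 and 1307 or more in each Eso26 library. Capitals mark the 50 bases from the transcription start onward, after the 250 bases before it.
KRT20: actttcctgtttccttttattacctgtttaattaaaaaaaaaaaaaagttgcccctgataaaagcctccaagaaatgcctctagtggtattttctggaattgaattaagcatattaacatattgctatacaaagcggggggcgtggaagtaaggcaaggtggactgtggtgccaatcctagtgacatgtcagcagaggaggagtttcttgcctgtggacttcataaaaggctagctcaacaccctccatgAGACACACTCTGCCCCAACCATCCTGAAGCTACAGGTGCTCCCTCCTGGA
Searched on both strands, this window held no match to TATAAA (the TATA box), TGANTCA (the AP-1 site) or the DR1 element (AGGTCA repeated after 1 base, bound by PPAR with RXR). Only these letters were searched, with N as any base, so variants of the motifs would not be found. Of all 35116 promoters of that length in the table, 11.5% held the TATA box letters, 7.71% the AP-1 letters and 0.0228% the DR1 letters. Of the 10 keratins, 2 had an entry in the promoter table, and the other entry, KRT8, likewise held none of these motifs.

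KRT7, a type II keratin of ducts and glands, had 24745 and 24317 counts (1404 and 1466 CPM) in OE33 siPPARG and control, and 28 and 30 counts (1.31 and 1.29 CPM) in Eso26 siPPARG and control. Both OE33 libraries stood far above both Eso26 libraries, whose own intervals overlapped. The OE33 control held 1134 times the KRT7 of the Eso26 control (interval 794 to 1681), and the ratio between the siPPARG libraries was 1071 (interval 741 to 1612). An antisense gene, KRT7-AS, overlaps KRT7 in RefSeq, and no source used here says whether the counting was stranded. KRT7-AS had 81 and 54 counts in OE33 siPPARG and control and 2 and 4 in Eso26 siPPARG and control.

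KRT20, a type I keratin of intestinal and gastric surface cells, had 7 and 4 counts (0.397 and 0.241 CPM) in OE33 siPPARG and control, and 1307 and 1839 counts (61.2 and 79.2 CPM) in Eso26 siPPARG and control. The groups did not overlap, and the OE33 control held 0.00304 times the KRT20 of the Eso26 control (interval 0.000828 to 0.00781). Its neighbour on chromosome 17, KRT23, another type I keratin and no member of the 10, showed the same order. KRT23 had 9 and 7 counts in OE33 siPPARG and control and 9980 and 11104 in Eso26 siPPARG and control.

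KRT8 and KRT18, the founding pair of simple epithelia, were abundant in all 4 libraries. KRT8 stood at 1322 and 1324 CPM in OE33 siPPARG and control and at 771 and 999 CPM in Eso26 siPPARG and control. KRT18 stood at 945 and 951 CPM in OE33 siPPARG and control and at 329 and 416 CPM in Eso26 siPPARG and control. For both genes, the OE33 libraries lay above the Eso26 libraries, with Eso26 control above Eso26 siPPARG. KRT8 was 1.33 times as high in OE33 control as in Eso26 control (interval 1.30 to 1.35) and KRT18 2.28 times (interval 2.23 to 2.34). The count ratio of KRT8 to KRT18 was 1.40 (interval 1.37 to 1.43) in OE33 siPPARG and 1.39 (interval 1.36 to 1.42) in OE33 control. In Eso26 siPPARG it was 2.34 (interval 2.28 to 2.41), and in Eso26 control 2.40 (interval 2.34 to 2.46). The ratio therefore differed between the lines beyond counting error, and within each line its intervals overlapped. KRT8 and KRT18 overlap in RefSeq, and both have many processed copies in the genome. The tables hold 50 KRT8 and 67 KRT18 pseudogene rows, whose summed counts came to 0.651% to 1.76% of the KRT8 count and 0.318% to 0.641% of the KRT18 count.

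KRT19, the smallest type I keratin and a common epithelial tumour marker, stood at 5070 and 5359 CPM in OE33 siPPARG and control and at 968 and 803 CPM in Eso26 siPPARG and control. Both OE33 libraries were above both Eso26 libraries. OE33 control held 6.68 times the level of Eso26 control (interval 6.57 to 6.78).

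Of the squamous keratins, KRT15, a type I keratin of basal squamous cells, had 1638 and 1499 counts (93.0 and 90.4 CPM) in OE33 siPPARG and control, and 80 and 82 counts (3.75 and 3.53 CPM) in Eso26 siPPARG and control. KRT15 was 25.6 times as high in OE33 control as in Eso26 control (interval 20.5 to 32.4), and the intervals of the libraries of each line overlapped.

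KRT13, the type I keratin of upper squamous layers, had 32 and 165 counts (1.82 and 9.95 CPM) in OE33 siPPARG and control and 0 in both Eso26 libraries. Set against the 3 counts that a count of 0 allows in 1 library, OE33 control was at least 77.0-fold higher than Eso26 control. KRT13, KRT15 and KRT19 are consecutive genes on chromosome 17 in RefSeq, and all 3 were higher in OE33 control.

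The keratins of wounded epithelium had few counts in both lines. KRT16 had 346 and 159 counts (19.6 and 9.59 CPM) in OE33 siPPARG and control, and 76 and 73 counts (3.56 and 3.15 CPM) in Eso26 siPPARG and control. KRT17, its neighbour, had the opposite order of lines, with 48 and 32 counts (2.72 and 1.93 CPM) in OE33 siPPARG and control, and 114 and 193 counts (5.34 and 8.32 CPM) in Eso26 siPPARG and control. KRT16 was 3.05 times as high in OE33 control as in Eso26 control (interval 2.30 to 4.08), and KRT17 stood at 0.232 times (interval 0.154 to 0.339). KRT6A, their type II partner, had 4 and 3 counts in OE33 siPPARG and control and 0 and 1 in Eso26 siPPARG and control, too few for a ratio between the lines. KRT6A, KRT16 and KRT17 have near-identical copies, and no source used here says how reads shared between copies were counted.

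**Figure D1:**
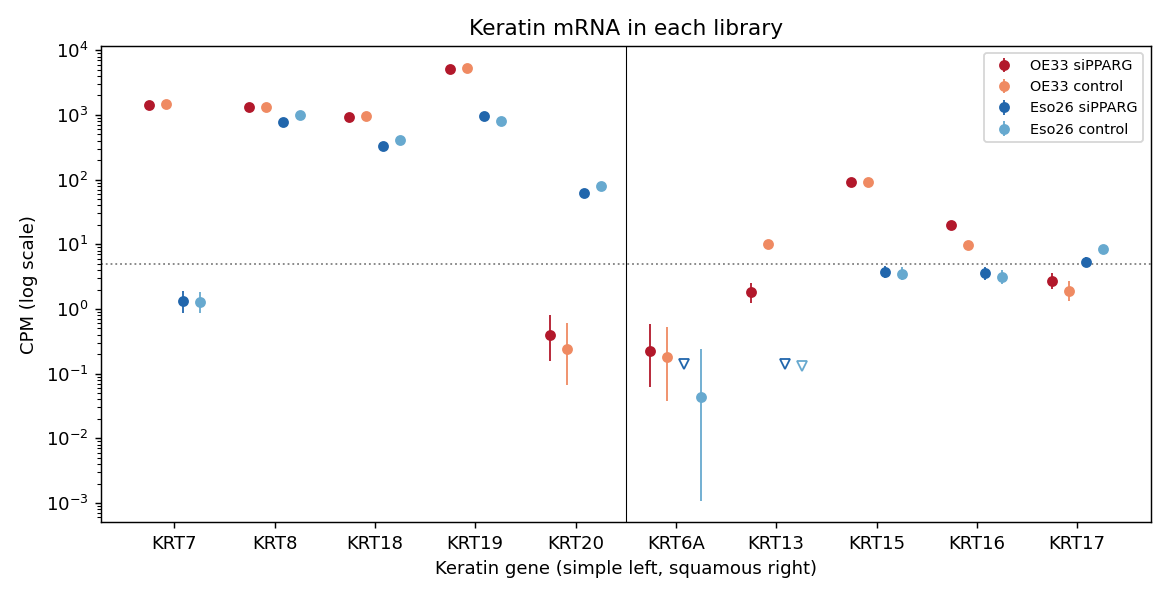
Level of each keratin in CPM on a log axis, with OE33 siPPARG, OE33 control, Eso26 siPPARG and Eso26 control as points in that order and 95% Poisson intervals as bars. Open triangles mark a count of 0, drawn at the level of 3 counts, and the dotted line is 5 CPM. KRT7 and KRT20 sit at opposite ends for the 2 lines, while KRT8 lies between 771 and 1324 CPM throughout.

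In all, 8 of the 10 keratins differed past 2-fold between the controls, 6 higher and 2 lower in OE33, among 9 that reached 5 CPM in at least 1 control. Of all 11211 genes so filtered, 37.8% were past 2-fold, 21.5% higher and 16.3% lower in OE33. Of those 9, only KRT8, KRT18 and KRT19 reached 5 CPM in both controls, and the others passed through the line in which they were high, so the count of 8 is a description. Between the siPPARG libraries KRT17 stood at 0.510 times Eso26 (interval 0.356 to 0.721), just inside the 2-fold line, so that KRT20 was the 1 keratin lower past 2-fold there, beside 16.8% of genes.

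The difference between lines was put to edgeR's quasi-likelihood test over the 4 libraries, with line and treatment as terms and 1 residual degree of freedom. At an adjusted p under 0.05, the test called 71.3% of 11382 genes, 37.2% higher and 34.1% lower in OE33, and 9 keratins were called, 7 higher and 2 lower in OE33. KRT6A was under the filter. KRT7, KRT13, KRT15, KRT16, KRT17 and KRT20 again passed the filter through the line in which they were high, so this count and their adjusted p-values are descriptions, while KRT8, KRT18 and KRT19 passed it in both lines. The log2 difference of OE33 to Eso26 was 10.10 ± 0.17 (SE) for KRT7 (edgeR adjusted p = 1.22e-05) and -7.73 ± 0.26 for KRT20 (edgeR adjusted p = 1.76e-05). It was 2.56 ± 0.13 for KRT19 (edgeR adjusted p = 5.23e-05), 4.65 ± 0.15 for KRT15 (edgeR adjusted p = 1.67e-05) and 1.36 ± 0.13 for KRT18 (edgeR adjusted p = 0.000373). The weakest calls were KRT8, with 0.59 ± 0.13 (edgeR adjusted p = 0.00906), and KRT17, with -1.52 ± 0.34 (edgeR adjusted p = 0.0093). KRT16 had 2.05 ± 0.27 (edgeR adjusted p = 0.00123). KRT13 was called as well (edgeR adjusted p = 0.000425), but with 0 counts in Eso26 its fitted value is no measure of size. The residual in this test is how far the line difference varied between siPPARG and control, not a spread between cultures. The test also pools spread over the 11382 genes, so an SE is not that gene's own variation alone.

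**Figure D2:**
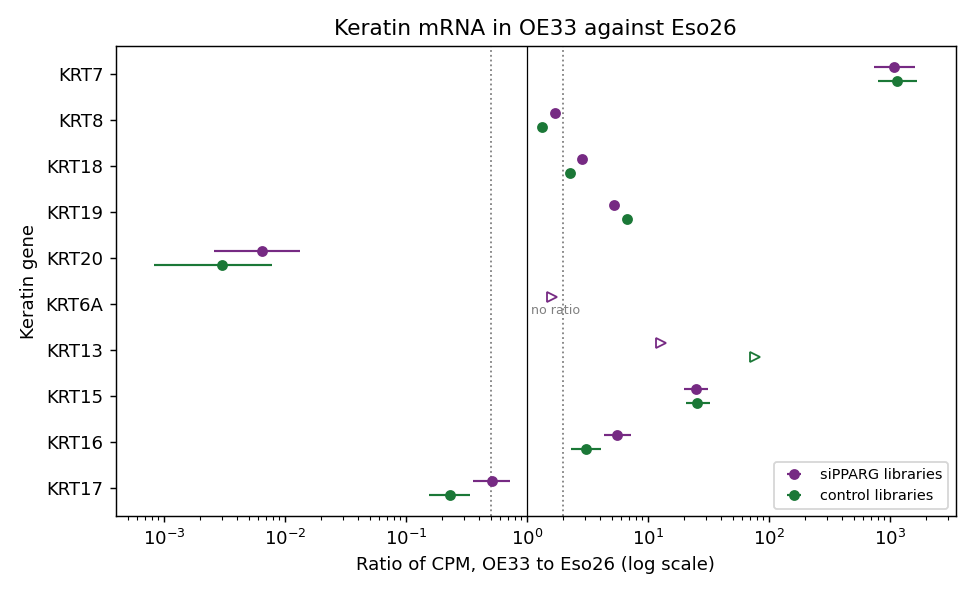
Ratio of CPM in OE33 to Eso26 for each keratin on a log axis, with the siPPARG libraries above the control libraries and 95% counting intervals as bars. Open triangles are lower bounds against a count of 0, drawn without the counting error of OE33, and dotted lines mark 2-fold. KRT7 lies at 1071 and 1134 and KRT20 at 0.00649 and 0.00304, while KRT8 stays within 2-fold in both pairs.

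The make-up of the keratin counts differed accordingly. Together the 10 genes took 0.859% and 0.906% of all counts in OE33 siPPARG and control, and 0.223% and 0.233% in Eso26 siPPARG and control. The squamous keratins held 1.32% of these keratin counts in OE33 siPPARG (Wilson interval 1.27 to 1.38) and 1.22% in OE33 control (interval 1.16 to 1.27), against 0.590% in Eso26 siPPARG (interval 0.524 to 0.664) and 0.650% in Eso26 control (interval 0.586 to 0.722). The simple keratins thus took between 98.7% and 99.4% of the keratin counts. KRT19 held 57.2% and 58.2% in OE33 siPPARG and control. In Eso26 siPPARG, KRT19 held 45.2% and KRT8 36.0%, and in Eso26 control KRT19 held 34.7% and KRT8 43.2%. The share of KRT19 was thus larger, and that of KRT8 smaller, in Eso26 siPPARG than in Eso26 control, each beyond counting error.

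**Figure D3:**
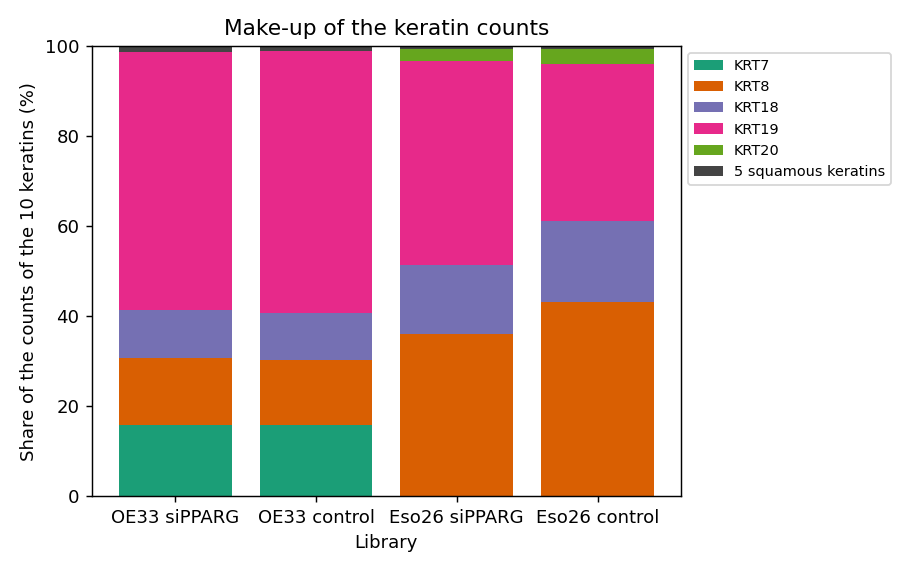
Share of the summed counts of the 10 keratins in each library in percent, with the simple keratins as single segments and the 5 squamous keratins as 1 segment at the top. KRT7 fills a visible segment in the OE33 libraries alone, KRT20 in the Eso26 libraries alone, and the KRT19 segment is larger in Eso26 siPPARG than in Eso26 control. Shares are not corrected for gene length.

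Within each line, siPPARG was set against control to ask which keratins depend on PPARG. In OE33, where PPARG mRNA was 0.137 times the control, KRT7, KRT8, KRT18 and KRT19 stood between 0.946 and 0.999 times the control, and of the 10 keratins KRT13 and KRT16, both with few counts, differed past 2-fold. KRT13 stood at 0.183 times the control (interval 0.121 to 0.268), with 32 counts in siPPARG and 165 in control. KRT16 was 2.05 times as high (interval 1.69 to 2.49), with 346 counts in siPPARG and 159 in control. These were 2 of the 7 keratins that reached 5 CPM in OE33, beside 1.5% of 10550 genes past 2-fold. KRT13 passed the filter through the control library alone, where it lay at 9.95 CPM, and a filter of 10 CPM would leave it out.

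The simple keratins of OE33 had narrow intervals close to 1. The ratio to control was 0.999 for KRT8 (interval 0.980 to 1.02) and 0.994 for KRT18 (interval 0.973 to 1.02), both including no change. It was 0.958 for KRT7 (interval 0.941 to 0.975) and 0.946 for KRT19 (interval 0.937 to 0.955), with intervals a little below 1 that hold no spread between cultures. KRT15 was at 1.03 times the control (interval 0.959 to 1.10). KRT17, under 5 CPM, was at 1.41 (interval 0.884 to 2.28). KRT20 and KRT6A had at most 7 counts, and their intervals of 0.419 to 7.67 and 0.212 to 8.57 leave a change in either direction undetectable at this depth. The median log2 fold of the 4 simple keratins at 5 CPM was -0.04, that of the 3 squamous ones 0.04, and that of all genes 0.0024.

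In the same OE33 pair, 17 of 17 interferon-response genes that reached 5 CPM were higher in siPPARG, beside 50.4% of all genes. Their median log2 fold was 1.54, and 10 were past 2-fold, beside 1.5% of all genes past 2-fold in either direction. These genes were listed with earlier results of these data known, so the counts are descriptions. In Eso26, 6 of 15 were higher and 9 lower, beside 48.6% of all genes higher. Their median there was -0.05 and 0 were past 2-fold, beside 0.202% of all genes. Their summed level was 7233 CPM in OE33 siPPARG and 2920 CPM in OE33 control. The part of this response in the KRT13 and KRT16 differences was not tested. The controls also received siRNA, but with 1 silencing condition in each line, other effects of the siRNA against PPARG cannot be told apart from PPARG loss.

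In Eso26, none of the 5 keratins that reached 5 CPM differed past 2-fold, beside 0.202% of 10421 genes, but KRT8, KRT18 and KRT20 were all lower by a similar factor. KRT8 stood at 0.772 times the control (interval 0.757 to 0.788), KRT18 at 0.790 (interval 0.766 to 0.815) and KRT20 at 0.772 (interval 0.719 to 0.830). KRT19 went the other way, at 1.21 times the control (interval 1.18 to 1.23). KRT17 had the lowest ratio, 0.642 (interval 0.505 to 0.813), with 114 counts in siPPARG and 193 in control. For comparison, the middle 90% of genes in Eso26 had log2 folds between -0.39 and 0.38, which holds KRT8 (-0.37), KRT18 (-0.34), KRT20 (-0.37) and KRT19 (0.27) and leaves KRT17 (-0.63) outside. KRT7, KRT15 and KRT16, all under 5 CPM, had ratios of 1.01 (interval 0.584 to 1.76), 1.06 (interval 0.769 to 1.46) and 1.13 (interval 0.810 to 1.58), each including no change. Since PPARG mRNA was not detectably reduced in this line, these values describe the library labelled siPPARG.

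**Figure D4:**
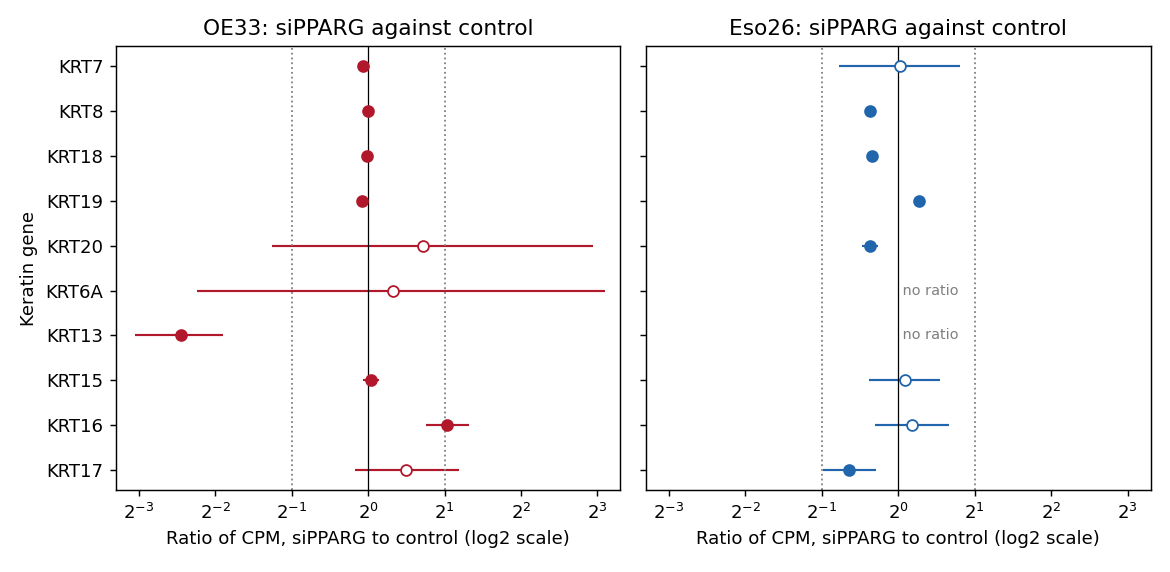
Ratio of CPM in siPPARG to control for each keratin on a log2 axis, OE33 on the left and Eso26 on the right, with 95% counting intervals as bars. Filled points reached 5 CPM in at least 1 of the libraries compared, open points did not, and dotted lines mark 2-fold. In OE33, KRT13 lies at 0.183 and KRT16 at 2.05 with the other filled points near 1, while in Eso26 the filled points lie between 0.642 and 1.21.

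For an effect common to both lines, 0% of the 11382 genes, and so 0 keratins, had an adjusted p under 0.05 in edgeR's quasi-likelihood test. At an unadjusted p under 0.05 there were 523 genes, or 4.59%. The targeted gene PPARG was not called either, with -1.67 ± 0.61 (SE, edgeR unadjusted p = 0.0374, adjusted p = 0.942). The absence of keratin calls therefore does not show that keratins were unaffected. DESeq2 called 2 genes higher and 11 lower, limma called 0, and neither called a keratin. KRT13 had a log2 difference of -2.44, which rests on 1 OE33 library against the other because Eso26 had 0 counts. It thus had no residual between the lines, and its spread was borrowed from other genes. No SE or p-value is therefore given for KRT13. Without a filter on low counts edgeR called KRT13 lower, with the same limit. KRT16 had 0.67 ± 0.27 (unadjusted p = 0.0483, edgeR adjusted p = 0.942).

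The usual partners and close copies of the squamous keratins had few or no counts. KRT4, the partner of KRT13, KRT6C, a copy of KRT6A, and KRT1, a keratin of skin, had 0 counts in all 4 libraries. KRT5, the partner of KRT15 in basal cells, had 0 and 3 counts in OE33 siPPARG and control, and 69 and 58 in Eso26 siPPARG and control. KRT5 was thus under 5 CPM in both lines, and found in the line where KRT15 was low. KRT14 had at most 4 counts and KRT6B at most 3. KRT10, the type I partner of KRT1, was at 9.36 and 11.8 CPM in OE33 siPPARG and control, and 8.29 and 6.55 CPM in Eso26 siPPARG and control.

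Of the 56 other keratin genes, 3 reached 5 CPM in any library and 32 had 0 counts in all 4. Beside KRT10 and KRT23 the third was KRT80, a type II keratin whose gene neighbours KRT7 on chromosome 12. KRT80 had 6567 and 3746 counts (373 and 226 CPM) in OE33 siPPARG and control, and 1091 and 1595 counts (51.1 and 68.7 CPM) in Eso26 siPPARG and control. It stood at 1.65 times the control in OE33 (interval 1.59 to 1.72) and at 0.743 times in Eso26 (interval 0.688 to 0.803). KRT23 stood at 0.977 times the control in Eso26 (interval 0.951 to 1.004).

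Plakins and desmosomal proteins tie keratin filaments to the cell membrane. Of 13 such genes, 11 reached 5 CPM in OE33, where 6 were higher and 5 lower in siPPARG, beside 50.4% of all genes higher. Their median log2 fold was 0.02, against 0.0024 for all genes. In Eso26, 3 of 10 were higher and 7 lower, beside 48.6% of all genes higher, with a median of -0.24 against -0.01 for all genes. None was past 2-fold in either line, beside 1.5% of all genes in OE33 and 0.202% in Eso26. DSC3, a desmosomal cadherin of squamous epithelium, had 522 and 631 counts in OE33 siPPARG and control, and 0 and 1 in Eso26 siPPARG and control. DSC2, the widely expressed desmocollin, had the opposite order, with 67.8 and 55.6 CPM in OE33 siPPARG and control, and 142 and 198 CPM in Eso26 siPPARG and control. PPL (periplakin) was 2.92 times as high in OE33 control as in Eso26 control (interval 2.77 to 3.08).

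Of the squamous markers outside the keratins, 7 reached 5 CPM in a control, of which 6 were higher and 1 lower in OE33 control than in Eso26 control, 5 and 1 of them past 2-fold. The lower one was SOX2, at 0.121 CPM in OE33 control and 8.53 CPM in Eso26 control. Of the columnar markers, 12 reached 5 CPM in a control, of which 3 were higher (CDH1, CLDN4 and ELF3) and 9 lower in OE33 control, 1 and 7 of them past 2-fold. Past 2-fold, 21.5% of all genes so filtered were higher and 16.3% lower in OE33 control. SPRR1B, SPRR3, IVL and SOX2, and the columnar HNF4A, VIL1, CDH17 and MUC13, reached 5 CPM in 1 control alone. These counts are therefore descriptions. The genes given next were those with the largest folds of each list. The cornified envelope genes SPRR3, SPRR1B and IVL had 335, 206 and 103 counts in OE33 control and 0 in both Eso26 libraries. In OE33 siPPARG, the ratio to control was 1.95 for SPRR1B (interval 1.65 to 2.32) and 1.55 for SPRR3 (interval 1.35 to 1.78), in the direction of KRT16 and not of KRT13, and 1.17 for IVL (interval 0.895 to 1.53). Of the 6 squamous markers at 5 CPM in OE33, 5 were higher in siPPARG and 1 lower, with 0 past 2-fold. Among all genes, 50.4% were higher. The lower marker was GRHL3, at 51.6 and 54.6 CPM in OE33 siPPARG and control. SPRR1A, under 5 CPM, had 49 and 57 counts there. The intestinal genes CDH17, HNF4A and VIL1 had 7, 2 and 18 counts in OE33 control, against 14093, 5271 and 20313 in Eso26 control, the order seen for KRT20. Filament regulators differed less, with TCHP (trichoplein, a keratin-binding protein) at 0.581 times (interval 0.505 to 0.667), SFN, a 14-3-3 protein, at 0.718 times (interval 0.687 to 0.750) and FAM83H at 1.32 times (interval 1.27 to 1.38) in OE33 control relative to Eso26 control.

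With a prior count of 2, KRT7 and KRT20 had the widest range of log2 CPM among the 10 keratins, although the range of KRT13 is a lower bound because Eso26 had 0 counts. With a prior count of 0.5, the log2 difference of OE33 control to Eso26 control was 8.62 for KRT13 and -8.22 for KRT20. For KRT7 and KRT20, the genes with the nearest pattern were sought by Euclidean distance of centred log2 CPM over those libraries. For KRT7 they were CXCL6 (distance 0.41), SLC7A11-AS1 (0.46) and AFAP1-AS1 (0.54), all with at most 4 counts in an Eso26 library. For KRT20 they were PIP5K1B (0.17), ZNF134 (0.24) and ROBO1 (0.30). With 4 libraries such distances rest mostly on the line difference.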

How the data were processed

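RNA-seq counts were taken from 1 table per line. The authors deposited unnormalised read counts per gene, per the file headers; all values are whole and library totals differ. Per the submitters' processing notes, the build was hg19 and the tools were MACS2, Picard, Bowtie, STAR and Trim Galore, with no roles stated. No source used here states the read counter, strand setting, annotation or handling of multi-mapping reads. Of 37533 rows, 40 repeated an identifier and were summed with their partner. Peak lists were not used here, because no annotation of their build was used.

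Counts were scaled with TMM factors over the 4 libraries (edgeR 4.0.16, R 4.3.3), so that each library has 1 CPM value. Log2 folds used a prior count of 2. A gene was kept where at least 1 library compared reached 5 CPM, and 2-fold was the threshold where a condition had 1 library. Ratios carry exact conditional binomial intervals and CPM exact Poisson intervals at 95%, for counting error only. The 4 libraries were fitted with edgeR's quasi-likelihood test (line and treatment, Benjamini-Hochberg over all genes), with DESeq2 1.42.0 and limma 3.58.1 as alternatives. SE was derived from the test statistic. RefSeq tables (GRCh38.p14) gave neighbours and promoters. Named genes were the 10 keratins, other keratins at 5 CPM, partner keratins, PPARG, up to 3 genes of each of 4 lists with the largest folds, and the 3 nearest patterns of 2 keratins. Other markers of the cell type check and lists, KRT7-AS, KRT34 and KRT39 fall outside this rule and were named after their values were seen. The keratins and lists were chosen with earlier results of these data known.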

Additional observations from a re-analysis of the deposited data

Results flagged for a closer look

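KRT19 was lower in OE33 siPPARG and higher in Eso26 siPPARG than in the matching controls, each with a counting interval away from 1, and its log2 fold in OE33 minus that in Eso26 was -0.35. The same opposite directions were seen for KRT80, with a difference of 1.15 (higher in OE33 siPPARG, lower in Eso26 siPPARG), and for KRT10, with -0.67 (lower in OE33 siPPARG, higher in Eso26 siPPARG). DSC2 had a difference of 0.76 and SFN of 0.51, both higher in OE33 siPPARG and lower in Eso26 siPPARG. Most genes had siPPARG log2 folds between -0.44 and 0.49 in OE33 and between -0.39 and 0.38 in Eso26. KRT19 (-0.08 in OE33 and 0.27 in Eso26), KRT10 (-0.33 and 0.34) and SFN (0.26 and -0.25) lay within these ranges. KRT80 (0.72 and -0.43) lay outside them in both lines, and DSC2 (0.29 and -0.47) in Eso26 alone. How common such opposite directions were among all genes was not tested. None of these differences between the lines was tested, since each line has 1 library a condition, and no reduction of PPARG mRNA was detectable in Eso26.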

How the results depend on the processing

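No keratin past 2-fold, or called in the line test, reversed direction under any alternative run. The line difference called 7 keratins higher and 2 lower under every test, scaling and filter tried, and 6 to 7 higher and 2 lower when each library was left out in turn with line alone as the term (chosen after seeing the data). Without OE33 control, KRT13 was under the filter. Those fits called 3718 to 4108 genes higher and 3218 to 3793 lower. At 10 CPM, 0 keratins were lower past 2-fold in OE33 siPPARG, since KRT13 falls under that filter. Between the controls at 10 CPM, 4 keratins were higher and 1 lower in OE33, against 6 and 2 in the main setting, beside 2128 and 1517 genes. Between the siPPARG libraries 5 keratins were higher and 1 lower in OE33, beside 2492 and 1900 genes. In Eso26, 1 keratin was lower past 1.5-fold. In the common treatment effect, 1 keratin (KRT13) was called lower without a filter, where 36 genes were called higher and 28 lower. At an unadjusted p under 0.05 there were 1 higher and 1 lower (KRT13) of the 9 keratins kept, beside 4.59% of 11382 genes. Both calls of KRT13 rest on OE33 alone. The cause was not tested.

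Counts over all genes moved with the filter and threshold. In OE33, siPPARG had 114 genes higher and 44 lower past 2-fold. These counts were 218 and 84 with a 1 CPM filter, 868 and 590 with none, and 358 and 245 at 1.5-fold. The share higher was 72.2% in the main setting, 59.5% without a filter and 59.4% past 1.5-fold. In Eso26 they were 6 and 15, or 61 and 35 with a 1 CPM filter, 1 and 8 with 10 CPM, 418 and 329 with none, and 130 and 119 at 1.5-fold. Of these calls 44.4% were higher without TMM factors and 28.6% with them, 63.5% at 1 CPM, 11.1% at 10 CPM, 56.0% with no filter and 52.2% at 1.5-fold. Between the controls there were 3846 higher and 3575 lower without a filter, and 3083 lower past 1.5-fold. The common treatment effect had 2 and 11 genes with DESeq2, 36 and 28 without a filter, and 215 and 308 at an unadjusted p under 0.05. No paired analysis was possible because the labels give no replicate numbers, other than the pairing within line that the fit over the 4 libraries already holds. Shares per coding length and peaks at the keratin genes were not run, because neither lengths nor an annotation of the build was used. KRT6A, KRT20 in OE33 and KRT7 in Eso26 had few counts and wide intervals.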

Other observations

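A pair of hair keratins under 5 CPM, named after their values were seen, were each found in 1 line. KRT34 had 80 and 33 counts in OE33 siPPARG and control and 0 and 1 in Eso26 siPPARG and control. KRT39 had 35 and 32 counts in Eso26 siPPARG and control and 0 in both OE33 libraries. In OE33, KRT34 was 2.28 times as high in siPPARG as in control (interval 1.504 to 3.54), a higher value like that of KRT16, on counts too low for the 5 CPM filter.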
